A study of Helianthus annuus with 15 samples.

Results

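Root was compared with the shoot of sunflower (Helianthus annuus) across all genes with at least 1 FPKM in 3 or more libraries, where FPKM is the number of reads on a gene, scaled to the gene's length and to the library's total. This rule, which looks at the level of a gene and not at its difference between groups, kept 34586 of the 63411 identifiers in the table. RNA was sequenced from 5 tissues in 15 libraries: 3 from root, and for the shoot 3 each from stem, leaf, flower and axil, the angle between leaf and stem where side shoots begin. The labels give the tissue alone, with no treatment, and cultivar, plant age and growth conditions were not given in the sources used here. Nothing in them says that replicate libraries are separate plants, so the p-values measure a spread that may be technical. Because RNA came from whole pieces of tissue, fewer cells of a type and less RNA per cell cannot be told apart.

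The root is the underground, normally unlit organ that anchors the plant and takes up water and mineral nutrients, and it sends both to the shoot. Stem and leaf are green and photosynthesise, the flower carries the reproductive organs, and the axil holds the meristems from which branches grow. The root depends on sugar made in the leaves, so genes of photosynthesis are classically low in roots, while genes of nutrient uptake, root hairs and the suberised barrier layers are classically high there. The identifiers in the table are not paired with gene names apart from NAC83, and 0 of them matched the reference gene table, so no pathway list or tissue marker could be read from them. Genes are therefore described by level, pattern, position in the identifier and length, and at most 2 identifiers per direction are named for each quantity.

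Libraries held between 12087704 and 14732362 reads, as implied by the steps between FPKM values, at which depth a count of 3 reads equals 0.204 to 0.248 FPKM for a length of 1000 nt. Flower 1 and Leaf 2 stood apart: identifiers with the prefix MT took 0.419% and 0.125% of their reads, against at most 0.0695% in each of the other 13 libraries. Without both, the counts given next were 4627 higher (13.4%) and 5311 lower (15.4%). One check of the root label was possible. Identifiers with the prefix CP, commonly used for chloroplast genes, had 5, 3 and 5 reads in Root 1, Root 2 and Root 3, against 24 to 1966 reads in the shoot libraries, so the groups did not overlap. These are few reads, from a library preparation that selects polyadenylated RNA.

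Root differed from the mean of the 4 shoot tissues in 9954 genes, 28.8% of those tested. Of these, 4622 (13.4%) were higher in root and 5332 (15.4%) were lower. A call required an adjusted p under 0.05 in limma with Benjamini-Hochberg adjustment over all genes tested and a difference of at least 1 in log2(FPKM + 1), with each shoot tissue weighted equally. The median difference over all genes tested was -0.05. The excess of lower genes was small and turned under some settings. Lower genes led with FPKM as deposited, where 46.4% of the calls were higher. They also led with median-of-ratios scaling (46.1% higher) and quantile normalization (49.0%). Higher genes led at a log2 difference of at least 2 (51.5% of the calls), with root and shoot as 2 groups (54.1%) and with tissue means as units (89.8%). They led as well with libraries scaled to the same FPKM sum (5412 higher, 15.6% of those tested, and 4802 lower, 13.9%). That scaling moved the median difference over all genes to 0.09, a shift of 0.14. The call rule set how many genes were counted: adjusted p alone gave 9599 higher (27.8%) and 10844 lower (31.4%), and a pseudocount of 5 in place of 1 gave 2457 (7.1%) and 2627 (7.6%).

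Among genes called higher, the median level was 13.3 FPKM in root, against 2.40 in axil, 1.47 in leaf, 1.22 in stem and 0.772 in flower. Among genes called lower it was 0.758 FPKM in root, against 6.13 in axil, 7.90 in leaf, 9.17 in stem and 11.9 in flower. The median difference was 1.86 (log2) in the higher genes and -1.67 in the lower ones. Large differences were a minority in both directions. A difference of at least 2 was reached by 2067 of the higher genes (5.98% of those tested) and 1950 of the lower genes (5.64%), and one of at least 6 by 66 and 102. These levels chose the genes, so they describe the calls and do not support them.

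**Figure D1:**
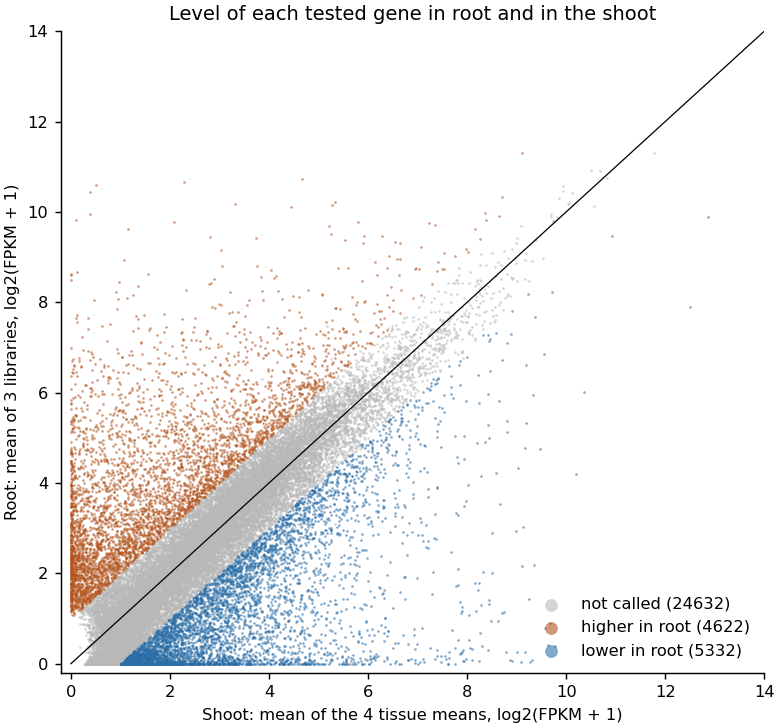
Each point is 1 of 34586 tested genes, with its root level on the vertical axis and the mean of the 4 shoot tissue means on the horizontal axis, both as log2(FPKM + 1); the line marks equal levels. The 4622 genes called higher lie above the line, many of them at shoot levels near 0, and the 5332 called lower lie below it, many at root levels near 0.

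The called genes, 28.8% of those tested, held different shares of the root and shoot libraries. They were called on these levels, so the shares describe the calls and do not support them. Genes called higher held 32.9%, 35.2% and 29.8% of the summed FPKM in Root 1, Root 2 and Root 3, against 3.78% to 12.2% in the shoot libraries, with a shoot median of 5.92%. The highest shoot value was that of Axil 3, the lowest that of Flower 3. Genes called lower held 4.53%, 3.70% and 4.36% in the same root libraries, against 20.2% to 48.1% in the shoot libraries, with the lowest value in Axil 3 and the highest in Leaf 2.

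The most abundant genes took less of the root transcriptome. The 100 most abundant genes of a library held 14.6%, 15.7% and 14.7% of summed FPKM in Root 1, Root 2 and Root 3, against 16.1% to 26.9% in the shoot libraries. Every root library lay below every shoot library, although Axil 1, the lowest shoot library, came close. The root mean minus the shoot mean was -4.84 percentage points, with an SD of 0.631 points in root and 3.27 in the shoot (n = 3 and 12; exact two-sided permutation test, p = 0.0044, the smallest this design allows; adjusted p = 0.00879 over 2 tests). For the 10 most abundant genes the groups also did not overlap, at 3.53% to 3.73% in root and 5.41% to 8.78% in the shoot. For the 1000 most abundant genes the groups overlapped, with 41.8% in Root 2 and 41.3% in Axil 1 (root minus shoot -5.98 points, exact two-sided permutation test, adjusted p = 0.0176). The number of genes at 1 FPKM or more did not separate the groups, with 28157, 26806 and 27274 genes in the root libraries and 26485 to 28487 in the shoot libraries. Its means differed by -377 genes (27412 ± 686 in root and 27790 ± 645 in the shoot, SD, n = 3 and 12; exact two-sided permutation test, p = 0.360, adjusted p = 0.360). That difference moved with single libraries, to -749.7 without Root 1 and -74.2 without Root 2, and was -0.917 genes at a minimum of 0.1 FPKM. Libraries of 1 shoot tissue were more alike (Pearson r across genes of 0.914 to 0.983) than libraries of different shoot tissues (0.685 to 0.873), so these permutations overstate the number of independent shoot samples.

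The libraries overlapped in part of the calls. In 4526 genes, 13.1% of those tested, every root library was above every shoot library, and 3205 of these were called higher. In 3964 genes, 11.5%, every root library was below every shoot library, and 3101 of these were called lower. The remaining 1417 higher and 2231 lower calls rested on means between overlapping libraries. Root was most often beyond all 4 shoot tissue means, in 4255 of the 4622 higher genes (92.1%, against 26.0% above all 4 among all genes tested) and 4722 of the 5332 lower genes (88.6%, against 28.5% below all 4). The calls were made on the same contrast, so nothing is read from these shares.

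A shoot tissue exceeded root in 367 of the genes called higher, and a shoot tissue was below root in 610 of those called lower. Where exactly 1 shoot tissue did so among the higher genes, it was most often the axil (136 of 356, or 38.2%). Among the lower genes it was most often the leaf (277 of 523, or 53.0%). Over all genes tested, axil was the highest shoot tissue in 33.1% and leaf the lowest in 35.4%. The axil share of 38.2% was near that background, so nothing is read from it. The axil also lay nearest to root in the full sets. It was the highest of the 4 shoot tissues in 42.6% of the genes called higher, against that 33.1%, and the lowest of them in 33.6% of the genes called lower, against 16.8% of all genes tested. Flower was the other extreme among the higher genes, being the lowest shoot tissue in 41.0% of them, against 25.9% of all genes tested. With the axil left out of the shoot, 5158 genes were called higher (14.9%) and 5849 lower (16.9%). Without flower the counts were 4307 (12.5%) and 4832 (14%).

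**Figure D2:**
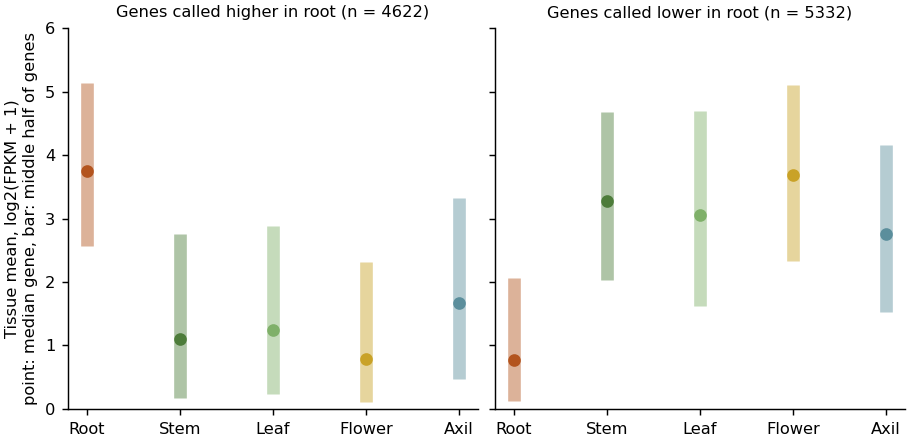
For the 4622 genes called higher (left) and the 5332 called lower (right), points give the median gene and bars the range between the quartiles, as tissue means in log2(FPKM + 1), with root first and the 4 shoot tissues after it. Axil is the shoot tissue nearest to root in both sets (medians of 1.68 and 2.75), and flower the farthest (0.79 and 3.68).

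The shoot was not one level. In contrasts that leave out the root mean, 24650 genes (71.3%) differed among stem, leaf, flower and axil (limma's moderated F test, adjusted p under 0.05, no fold threshold). The root libraries still entered the error of that test, since the fit used all 15 libraries. Of the higher genes, 2970 (64.3%) differed among the shoot tissues, and of those called lower, 4858 (91.1%). The median range between the highest and lowest shoot tissue was 1.19 (log2) in the higher genes, 2.16 in the lower genes and 1.02 over all genes tested.

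The contrast between the directions was smaller among genes expressed in all tissues. In genes whose 5 tissue means all reached 1 FPKM, 1418 of 1685 higher genes (84.2%) and 2097 of 2370 lower genes (88.5%) differed among the shoot tissues, against 71.7% of all 21349 such genes. At 5 FPKM in all 5 tissues the shares were 85.4% of 705 higher genes, 85.9% of 945 lower genes and 75.4% of all 11307. These minimum levels keep 36.5% of the higher and 44.4% of the lower genes at 1 FPKM, and leave out those that were low in the shoot or in root, so the subset depends on the difference itself. Of the higher genes, 1218 (26.4%) had no shoot tissue mean of 1 FPKM.

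Variation over libraries was divided in the same way. The contrast of root with shoot took 64.1% of the summed squares of log2(FPKM + 1) in the higher genes, 43.3% in the lower genes and 37.9% over all genes tested. Differences among the shoot tissues took 27.8% in the higher genes, 49.5% in the lower genes and 48.4% over all genes. Spread between libraries of 1 tissue took 8.17%, 7.20% and 13.7% in the same order. The genes were called on the first of these contrasts, so its share in them is a description.

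**Figure D3:**
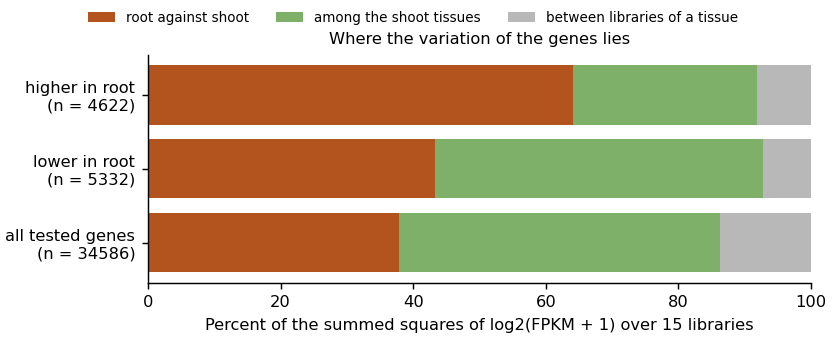
Bars divide the summed squares of log2(FPKM + 1) over 15 libraries into root against shoot, differences among the 4 shoot tissues, and spread between libraries of a tissue, in percent. Root against shoot takes 64.1% in the 4622 higher genes, 43.3% in the 5332 lower genes and 37.9% in all 34586.

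The count fell when root had to exceed the spread among shoot tissues. When the 5 tissue means were the units, so that the 4 shoot tissues acted as replicates and the single root mean was assumed to vary like them, 1156 genes were called higher (3.34% of those tested) and 131 lower (0.379%) by limma with Benjamini-Hochberg adjustment. Of the 1156 higher genes, 937 had no shoot tissue mean of 1 FPKM, and 151 had 0 reads in all 12 shoot libraries, where the spread among shoot tissues is 0. In genes whose tissue means all reached 1 FPKM, 50 were higher and 43 lower. A fit on libraries with only 2 groups, in which differences among shoot tissues enter the spread, gave 3890 higher (11.2%) and 3295 lower (9.53%).

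A level under 1 FPKM in one organ was the extreme form of these patterns. This level is not silence: only 151 genes tested had 0 reads in all 12 shoot libraries, and 1359 in all 3 root libraries. These counts are not like for like, since 0 reads is harder to meet in 12 libraries than in 3. The same holds for the counts under 1 FPKM that follow. In root, 232 of the genes tested averaged 10 FPKM or more while all 12 shoot libraries stayed under 1 FPKM. In the shoot, 188 genes averaged 10 FPKM or more in each of the 4 tissues while all 3 root libraries stayed under 1 FPKM. At a lower level, 973 genes reached 1 FPKM in the 3 root libraries and in no shoot library, and 941 of them were called higher. Such genes passed the filter only through root and had to differ, so their number is no support for the calls; 3681 higher genes were of another kind. All 3 root libraries were under 1 FPKM in 5675 of the 34586 genes tested, and 2528 of these were called lower. These genes passed the filter only through the shoot, so their number is no support for the calls either. Of the 2528, 1154 had all 4 shoot tissue means at 1 FPKM or more, 653 had 3, 511 had 2 and 210 had 1. Just inside the filter, 2726 genes reached 1 FPKM in exactly 3 libraries, with a median of 1.68 FPKM for the third highest value. Just outside it, 1810 genes did so in exactly 2 libraries, with a median of 0.765 FPKM, and for 408 of them both libraries were root.

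Among genes at 10 FPKM or more on the higher side and with no overlap between libraries, the largest difference relative to its error was that of HannXRQ_Chr16g0505171 on chromosome 16. Its root libraries had 403, 456 and 338 FPKM, against 0 in 11 shoot libraries and 0.0523 FPKM in Flower 2, which is 1 read. Its difference was 8.63 ± 0.11 (SE; limma adjusted p = 2.27e-14). Root and shoot were separated by the whole measured range, and the shoot value rests on a single read.

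HannXRQ_Chr15g0471731 on chromosome 15 was next, with 79.5, 86.4 and 95.3 FPKM in the root libraries, against a highest shoot value of 0.0553 FPKM and 5 reads over all 12 shoot libraries. The spread between its root libraries was small, at 87.0 ± 7.89 FPKM (SD, n = 3), and the difference was 6.43 ± 0.09 (SE; limma adjusted p = 1.06e-13). Neither gene was detectably different among the shoot tissues, where both lay under the level of 3 reads. Differences of genes this low in one group depend on the pseudocount of 1 and are not bounds on a fold change.

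In the other direction, HannXRQ_Chr17g0534921 on chromosome 17 had 0.134, 0.334 and 0.131 FPKM in the root libraries, against a lowest shoot value of 212 FPKM, a median of 387 and a highest of 2181. Leaf was far above the rest of the shoot, at 2075 ± 92.4 FPKM, against 300 ± 42.8 in stem, 453 ± 29.4 in flower and 257 ± 56.5 in axil (SD, n = 3 each). The root values stand for 5 reads in all. The difference was -8.76 ± 0.13 (SE; limma adjusted p = 1.06e-13), and the shoot tissues also differed from each other (limma F test, adjusted p = 3.31e-08).

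HannXRQ_Chr05g0144801 on chromosome 5 had 0, 0.0728 and 0.171 FPKM in the root libraries, against a lowest shoot value of 140 FPKM, a median of 224 and a highest of 679. Its order within the shoot was the same at the top, with leaf at 538 ± 127 FPKM, flower at 274 ± 24.4, stem at 180 ± 15.5 and axil at 154 ± 17.3 (SD, n = 3 each). The libraries of stem and axil overlapped. The difference of root from the shoot was -7.87 ± 0.13 (SE; limma adjusted p = 1.76e-13).

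A second pair per direction was chosen by the margin to the nearest shoot tissue instead of the shoot mean. HannXRQ_Chr16g0505511 on chromosome 16 had 1106, 1713 and 1393 FPKM in the root libraries, against a shoot median of 0.0665 FPKM and a highest shoot value of 2.56 FPKM in Axil 3. Its mean log2 level in root lay 9.62 (log2) above that of its highest shoot tissue. HannXRQ_Chr10g0314091 on chromosome 10 had 785, 1552 and 617 FPKM in root, against a shoot median of 0 and a highest value of 0.339 FPKM in Leaf 3, a margin of 9.57. Root 2 was the highest root library for both.

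The pair chosen below the shoot was HannXRQ_Chr05g0160351 on chromosome 5 and HannXRQ_Chr08g0232801 on chromosome 8. The first had 0, 0.162 and 0 FPKM in the root libraries, against 247 to 2665 FPKM in the shoot with a median of 419, and the margin between its mean log2 levels in root and in the lowest shoot tissue was -8.38. The second had 0, 0 and 0.0993 FPKM in root, against 183 to 2301 FPKM in the shoot with a median of 525 and a margin of -8.36. Each root level is 1 read over 3 libraries. Leaf was again the highest shoot tissue for both, at 2481 ± 267 and 1904 ± 508 FPKM (SD, n = 3), and Axil 3 the lowest shoot library. These 8 genes were picked for the size of their differences, so the tests describe them and do not stand as independent evidence.

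**Figure D4:**
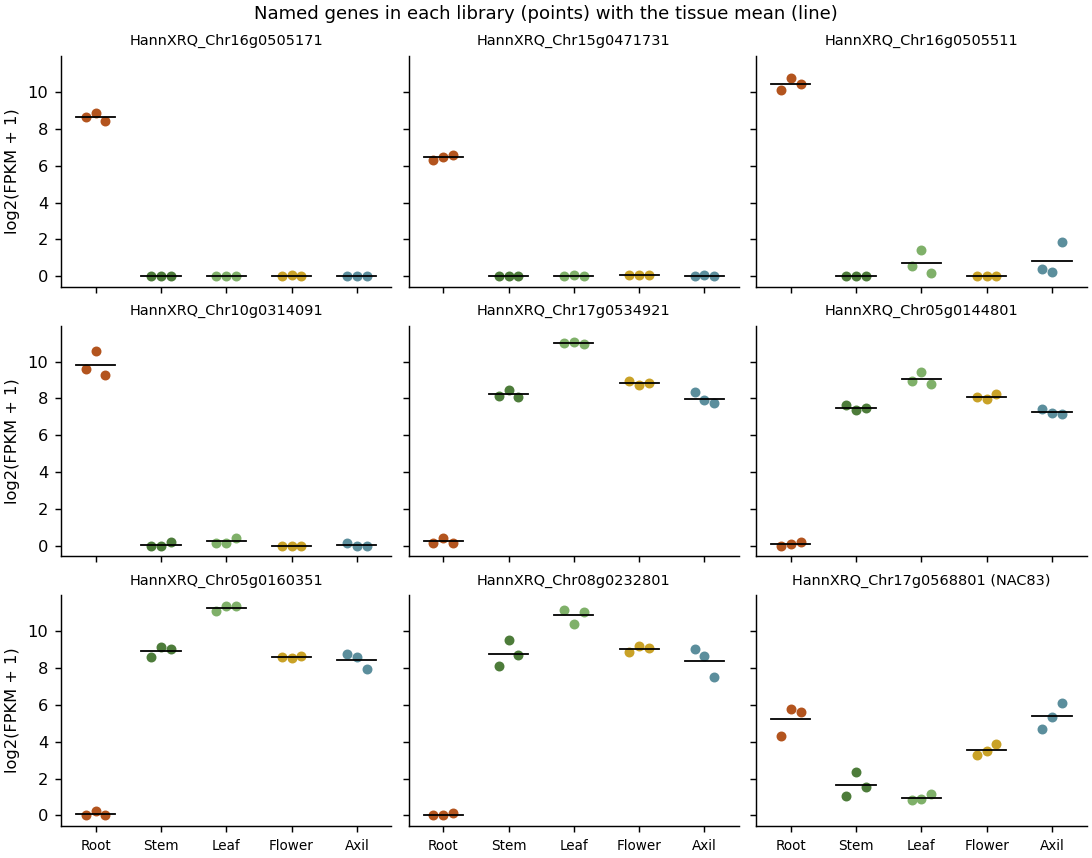
Points are single libraries and lines tissue means, in log2(FPKM + 1), for the 8 genes chosen by rule and for NAC83, with root at the left of each panel. The first 4 genes are at most 0.339 FPKM in the shoot, except HannXRQ_Chr16g0505511 with up to 2.56 FPKM in Axil 3; the next 4 are near 0 in root and highest in leaf, and NAC83 overlaps between root, at 19.2 to 54.8 FPKM, and axil.

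NAC83 on chromosome 17 (HannXRQ_Chr17g0568801), which encodes a transcription factor with a NAC domain, showed the limit of a single shoot mean. It had 19.2, 54.8 and 48.7 FPKM in the root libraries, against 0.770 to 67.7 FPKM in the shoot, with the highest value in Axil 3. It was called higher in root, with a difference of 2.37 ± 0.34 (SE; limma adjusted p = 5.06e-05), although root averaged 40.9 ± 19.1 FPKM and axil 44.2 ± 21.8 (SD, n = 3 each). The call was lost when differences among the shoot tissues entered the spread (limma adjusted p = 0.0993 with 2 groups and 0.641 over tissue means).

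In the values as deposited, lower calls were rarer in long genes. Of 2770 genes under 500 nt, 387 (14%) were called higher and 436 (15.7%) lower, near the 13.4% and 15.4% of all genes tested. Of 803 genes of 5000 nt and over, 96 (12%) were higher and 27 (3.36%) lower, so the lower calls varied more with length than the higher ones. The median difference was 0.41 (log2) over all of these long genes, against -0.25 over genes from 500 to under 1000 nt. Lengths are those implied by the FPKM values. The trend was also seen library by library. In genes of 5000 nt and over, the median deviation from a gene's own mean was 0.26 to 0.41 in the root libraries and -0.38 to 0.21 in the shoot libraries, highest in the axil. Weighted by reads, the mean gene length was 2423 to 2501 nt in the root libraries and 2069 to 2324 nt in the shoot libraries, with no overlap, and the FPKM sum was 564001 to 584581 in root and 607719 to 695634 in the shoot.

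With that length trend removed from each library, a setting chosen after the trend was seen, 4669 genes were higher (13.5%) and 5136 lower (14.8%). Of the calls without that step, 4352 higher and 4851 lower genes were among them. The order of higher and lower shares then turned in 5 of the 6 length classes. Under 500 nt it was 15.7% higher and 13.5% lower, and at 5000 nt and over it was 5.23% higher and 7.10% lower. The exception was the class from 1000 to under 2000 nt, where lower calls stayed the more common. Nor did lower calls then vary more with length than higher ones, and both were rarest at 5000 nt and over. No direction is therefore given for short or long genes as a class.

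**Figure D5:**
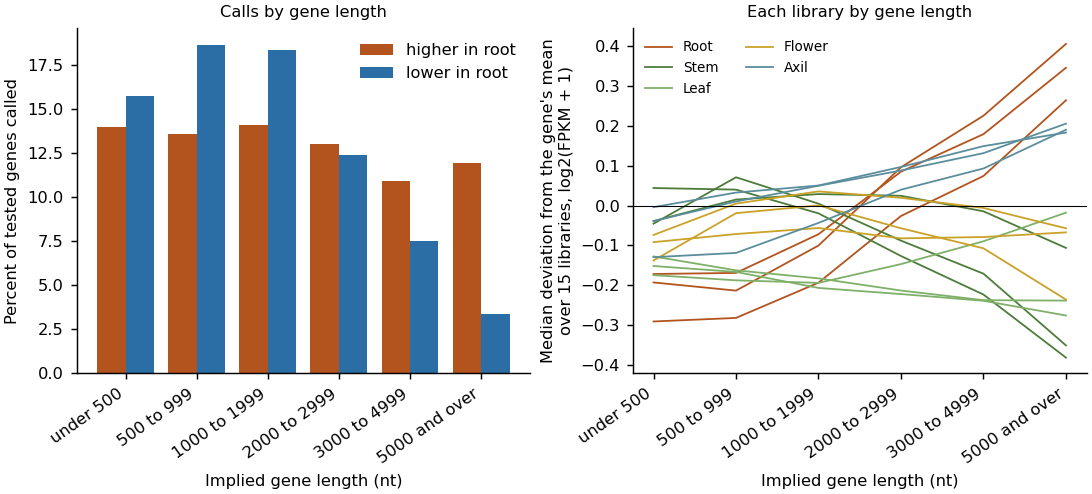
Left, percent of tested genes called higher (first bar) and lower (second bar) in root by implied gene length in nt; right, for each library, the median deviation in log2(FPKM + 1) of the genes of a length class from their own mean over 15 libraries. The lower calls fall to 3.36% in the longest genes, where the 3 root libraries lie between 0.26 and 0.41, above each shoot library.

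Calls were spread over all 17 chromosomes named in the identifiers. The share called higher ran from 11.6% on chromosome 15 to 14.9% on chromosome 4, and the share called lower from 13.6% on chromosome 7 to 17.8% on chromosome 16, around 13.4% and 15.7% of all chromosomal genes tested. By level, higher calls were most common among low genes, with 22.6% of genes at a mean log2(FPKM + 1) under 1 and 7.17% of those at 6 and over. Lower calls made up 4.07% of the class under 1 and 22.5% of the highest one. In the class under 1, differences could run further up than down, from -1.25 to 4.89. The mean level covers 12 shoot and 3 root libraries, so genes high only in root fall in low classes. The class thus depends on the difference itself, and nothing is read from these shares by level.

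Identifiers outside the numbered chromosomes were few. A class of loci listed by serial number, with no chromosome in the identifier, had 1383 members tested, of which 184 (13.3%) were higher and 123 (8.89%) lower. They took 1.20%, 0.888% and 1.01% of reads in Root 1, Root 2 and Root 3, against 0.608% to 0.762% in the shoot libraries, with no overlap. The order of higher and lower counts in this class turned with a pseudocount of 0.1 (264 higher and 338 lower), a filter at 5 FPKM (60 and 79), adjusted p alone (325 and 406) and limma's voom on recovered reads (275 and 312), so no direction is given for it. Of 234 identifiers with the prefix ENSRNA, 17 were higher (7.26%, against 13.4% of all genes tested) and 22 lower (9.40%, against 15.4%), and this order also turned, for example with libraries scaled to the same FPKM sum (19 and 18). Of only 5 CP identifiers tested, 2 were lower and 0 higher in root. Of 21 MT identifiers, 0 were called by limma at the adjusted threshold and 0 by voom, and 1 had an unadjusted p under 0.05, although all 21 differences were below 0, with a median of -0.79. Flower 1 and Leaf 2, which held the most reads of both classes, are part of the shoot mean.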

How the data were processed

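Per the labels' protocols, mRNA from 15 libraries (3 each of root, stem, leaf, flower and axil) was captured on oligo(dT) beads and ligated to adaptors with molecular identifiers; nothing in the sources used here says whether counting used them. The authors deposited FPKM per library, with their mean FPKM per tissue beside it. The submitters' processing notes name HTSeq 0.6.1; for the aligner, build and annotation the sources used here give nothing. A further 19 unnamed columns were not used, except that 1 identifier there is paired with NAC83.

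Whole reads were recovered from the FPKM steps: library totals and gene lengths were solved so that values are whole reads within 1e-06, and 50566 of the 50567 rows with reads gave a length whole within 0.05 nt. The floor of 3 reads covers counting error only. Each ± value is an SD between libraries or a limma SE, as named beside it. The fit used R 4.3.3 and limma 3.58.1 (eBayes, variance trend on) over log2(FPKM + 1) of all 15 libraries, with 1 mean per tissue, and the contrast was root minus the equally weighted mean of the 4 shoot tissues. The fit and the recovery were tested on simulated data. On this scale a difference understates the change of low genes. Named genes were the 2 per direction with the largest moderated t, and the next 2 with the widest margin to the nearest shoot tissue, among called genes at 10 FPKM or more on the higher side with no overlap between root and shoot libraries; NAC83 was added as the single name. Lists of photosynthesis, suberin, nutrient uptake, root identity, shoot identity and branching genes matched 0 identifiers and were not analysed here. The comparison and the lists were chosen with earlier results of these data known. SciPy 1.17.1, pandas 2.3.3, numpy 2.4.6 and matplotlib 3.10.9 ran under Python 3.11.15. Alternatives covered the pseudocount, filter, scaling, variance model, replicate block, fold threshold, unit of replication, shoot tissues included, gene length and leaving out each library.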

Additional observations from a re-analysis of the deposited data

How the results depend on the processing

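Over 50 settings, the recomputed main counts and library values stayed within 1.5 times, or on their side of the threshold, in 339 of 354 cases. Many settings leave out 1 library and differ little from the main fit. The difference in genes detected counted as unchanged even at -0.917 genes, since only its sign and side of the threshold were judged. Among identifier classes and named genes, 880 cases stayed, 59 moved and 2, both of NAC83, were weaker. The other 15 main cases follow. With a pseudocount of 5, 2457 genes were higher (1493 of them differing among the shoot tissues) and 2627 lower (2472). With adjusted p alone the counts were 9599 (6624) and 10844 (9307), and at a log2 threshold of 2 they were 2067 (1230) and 1950 (1858); these thresholds act by construction. With 2 groups, 3295 were lower, and over tissue means 1156 were higher and 131 lower, since the variation among shoot tissues then enters the error. Leaving out each library with the filter kept gave 4574 to 4664 higher and 5004 to 5485 lower, and with the filter recomputed 3668 to 4662 and 5003 to 5485; the lowest higher counts came without a root library, when a gene confined to root cannot reach 3 libraries. Genes differing among the shoot tissues then numbered 22829 to 24725 and 22440 to 24551. On the recovered whole reads, limma's voom gave 5839 higher and 7236 lower. A replicate block gave 4615 higher and 5315 lower and left the calls of all named genes in place. No shared effect of the replicate number was seen. Over 30 pairs with a shared number, the median correlation of deviations was -0.03 (-0.34 to 0.20). Only 1 library of 15 was most alike to one of its own number. These values cannot tell whether libraries with a shared number came from the same plant. The 8 genes chosen by rule kept their calls in all 391 runs that tested them. They were picked from the same data for the size of their differences, so this was close to fixed in advance and is no support. Depth limits genes near 3 reads, on which the pseudocount and the filter act.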

Other observations

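After a called gene, the next-numbered gene was called in the same direction somewhat more often than chromosomal genes in general. The next-numbered tested gene on the same chromosome was also called higher for 966 of 4413 genes called higher in root (21.9%, against 13.4% of all chromosomal genes tested), and also called lower for 1038 of 5174 genes called lower (20.1%, against 15.7%). Runs of at least 4 consecutive tested identifiers numbered 52 among the higher genes and 39 among the lower ones. The number of such runs to be had from the called shares alone was not computed, so nothing is read from these counts. The longest run was on chromosome 13, where 9 consecutive genes were all lower, with root means of 0 to 0.123 FPKM and a highest shoot tissue mean of 1463 FPKM. The next was a run of 7 lower genes on chromosome 17, with root means of up to 8.16 FPKM. Among the higher genes the longest runs held 6 genes, and there were 5 of them. Their highest shoot tissue means were 60.5 FPKM on chromosome 3, 11.4 on chromosome 5, 6.68 on chromosome 6, and 129.9 and 0.755 on chromosome 11. Order was read from the numbers in the identifiers, since no coordinates of the build are used here, and levels of near-identical neighbouring copies are uncertain, because the sources used here do not say how shared reads were counted. These runs were looked for after the calls were seen.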
